A study of Mus musculus with 12 samples.

Results

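The question addressed was what chow with CSF1Ri, an inhibitor of the colony stimulating factor 1 receptor, did to the RNA of cells that the labels call tumor-associated macrophages, with and without an antibody that activates CD40. All 12 of 12 libraries entered an additive model with an antibody term and an inhibitor term, and the inhibitor term set the 6 libraries from mice on CSF1Ri chow against the 6 from mice on normal chow, adjusted for antibody. The 4 groups of 3 libraries were CSF1Ri + CD40 agonist (600 mg PLX6134 per kg of chow, and the antibody FGK4.5 at 10 mg/kg by intraperitoneal injection every 3 days for up to 10 doses), CD40 agonist (normal chow and the same antibody), CSF1Ri (the same inhibitor chow, no antibody) and Control (normal chow, no antibody). PLX6134 is known here by its code name, and its description as an inhibitor of the receptor is that of the labels. The labels' protocols give the vehicle of the antibody as PBS. All mice carried induced melanomas that arise through a Cre recombinase driven in melanocytes, so the treatments acted on tumors of the host's own cells in mice with their own immune system. The drugs were given from 30 days after induction, with less than 100 mm3 of tumor in all, and treatment ended after 30 days or when a tumor reached 2 cm3. Each library came from a pool of at least 3 tumors that were digested to single cells, and the labels name no sort that would have kept only macrophages.

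The receptor encoded by Csf1r is a tyrosine kinase carried by monocytes and macrophages. Its ligands are CSF1, encoded by Csf1, and interleukin 34, and its signal supports the survival and maturation of these cells. In mice, non-classical monocytes (low in Ly6C, high in CX3CR1) and many tissue macrophages depend on it more than the Ly6C-high classical monocytes from which they derive, and macrophages take up CSF1 through the receptor and so remove it. CD40 is a receptor of the tumor necrosis factor receptor family on macrophages, dendritic cells and B cells.

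Library totals ran from 34168389 to 39818657 estimated counts in CSF1Ri + CD40 agonist, from 26316328 to 33948213 in CD40 agonist, from 26665394 to 32880763 in CSF1Ri and from 28709482 to 31698533 in Control, so the combination was sequenced somewhat deeper. Levels are given below as CPM, counts scaled to a common library size of 1e+06. Differences are given as log2 of libraries with CSF1Ri chow over libraries without. Their standard error (SE) was derived as the size of the difference divided by the square root of edgeR's quasi-likelihood F statistic. The macrophage label was checked against its markers. Lyz2, a lysozyme gene of macrophages and other myeloid cells, stood at 11410 to 30880 CPM in the combination, 11970 to 16020 CPM in CD40 agonist, 20440 to 22080 CPM in CSF1Ri and 14290 to 17920 CPM in Control, while Cd68 was at 521 CPM or more and Adgre1 at 194 CPM or more in every library. All 26 listed macrophage genes were detected well enough to be tested. So were all 17 T cell, 16 neutrophil and 13 fibroblast genes listed, so passing the filter does not set macrophages apart. On sums over listed genes, 2 libraries with CSF1Ri chow stood apart from their groups. Combination replicate 2 summed to 494 CPM over the dendritic cell markers, against 3854 and 3948 CPM in the other combination libraries, and to 12120 CPM over the interferon gamma response genes, against 2736 and 3769 CPM. CSF1Ri replicate 3 summed to 843 CPM over the neutrophil markers, against 4068 and 3079 CPM in the other CSF1Ri libraries. Where leaving out both changed the call of a gene named below, the value without them stands beside it. The 2 were picked by their values in these same data, and both had chow, so a call gained without them is a description only. Libraries without chow differed in such sums too, Control replicate 1 having 1610 CPM over the neutrophil markers, against 755 and 638 CPM in the other Control libraries. Mean correlation of log2 CPM within the group was 0.901 for combination replicate 2 (0.905 and 0.908 for the others) and 0.91 for CSF1Ri replicate 3 (0.916 for the others).

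Of 16027 genes tested, 24 (0.15%) passed edgeR's quasi-likelihood test for the inhibitor term at a Benjamini-Hochberg adjusted p below 0.05. 9 genes (0.0562%) rose with CSF1Ri chow and 15 (0.0936%) fell. The genes that rose included cytokines (Csf1, Il6 and Osm), the activation marker Cd69 and the steroid-synthesis gene Cyp11a1. The genes that fell included 4 markers of non-classical monocytes (Cd36, Cd300e, Ace and S1pr5), the transcription factor Klf4, the survival gene Bcl2 and the B cell marker Ms4a1. At an unadjusted p below 0.05 there were 751 higher genes (4.69%) and 737 lower genes (4.6%), and 75 genes had an adjusted p below 0.1. The median log2 difference over all genes tested was -0.01. Leaving out 1 library moved the number of called genes by more than 1.5 times in 3 cases, to 10 without CSF1Ri replicate 2, 15 without Control replicate 1 and 48 without CSF1Ri replicate 3, and leaving out both outlying libraries gave 50. All 24 called genes kept their direction in each of the 24 alternative analyses that tested them (23 for Arhgap29 and Apol9b, which a filter of at least 5 CPM in 3 libraries removed), and 7 of them were called in each: Csf1, Slc12a2, Cd300e, Klf4, Ms4a1, Gm45551 and Gm9973.

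No gene passed the test of whether the antibody changed the inhibitor's effect. In that test of the difference between the 2 inhibitor effects, with and without antibody, edgeR's quasi-likelihood test called 0 of 16027 genes (0%), with 1305 genes (8.14%) at an unadjusted p below 0.05 and a lowest adjusted p of 0.141. None of the 24 called genes had an unadjusted p below 0.05 in that test. The additive fit that called them counts such a difference as spread, and so disfavours genes that have one. Their absence here therefore cannot show that the inhibitor's effect was the same with and without antibody. DESeq2 called 183 genes for the same difference. All 24 called genes had the same sign in the libraries with antibody (CSF1Ri + CD40 agonist against CD40 agonist) and in those without (CSF1Ri against Control), which are separate sets of 6 libraries. For 23 of the 24, P2rx2 being the exception, the chow libraries did not overlap with the others within either set. The share of all genes tested that separate in this way was not counted, so this number has no background. Over the pooled arms of 6, 19 of the 24 did not overlap, against 112 of all genes tested (0.699%), and the 5 that did were P2rx2, Zfyve9, Grk3, Cd69 and Osm. The counts of same sign and of no overlap are of genes chosen by the inhibitor term itself, which favours both. They are given as a description.

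**Figure D1:**
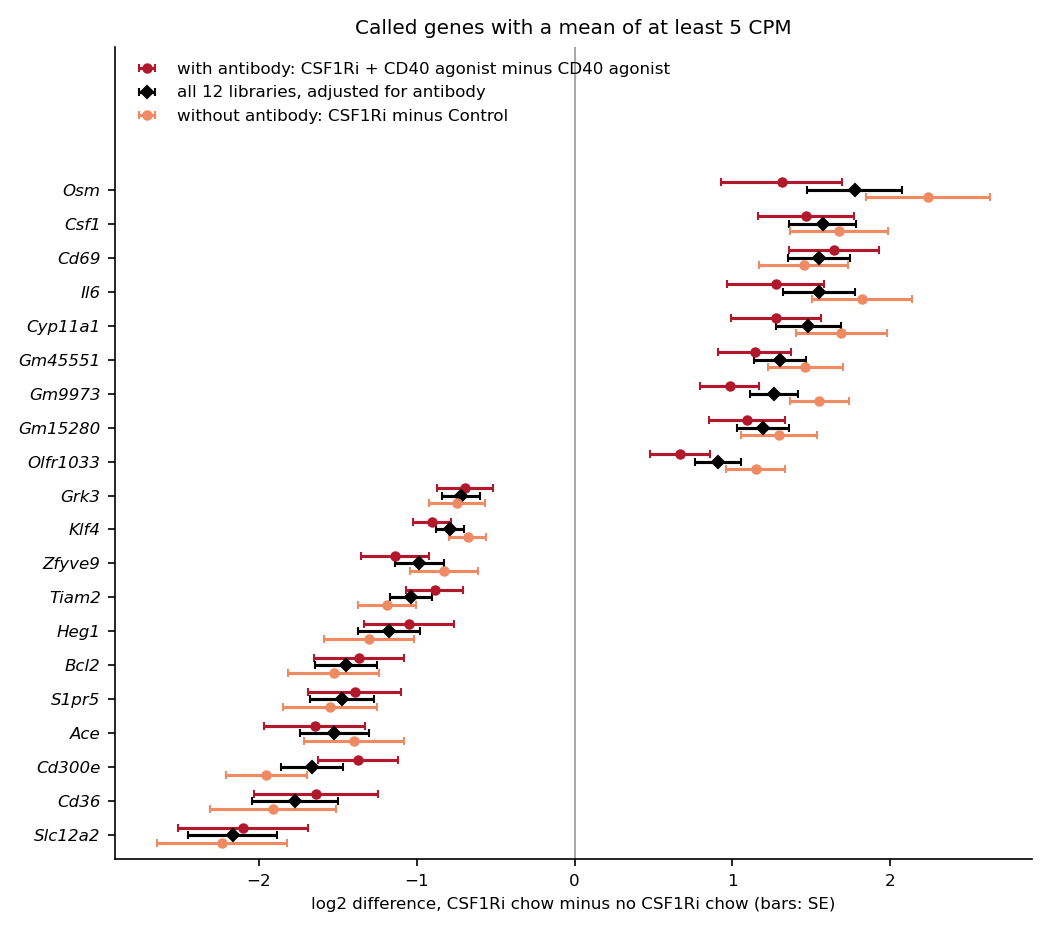
Log2 difference for CSF1Ri chow (x axis, log2 of chow over no chow, bars are 1 SE) for the called genes with a mean of at least 5 CPM over the 12 libraries. Red circles are the 6 libraries with antibody, black diamonds all 12 libraries adjusted for antibody, and orange circles the 6 libraries without antibody. Every gene lies on the same side of 0 in all 3 estimates, from Osm at 1.78 to Slc12a2 at -2.17. Choosing genes by the estimate over all 12 libraries favours this.

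Promoters of 4 called genes are shown as examples, and no call rests on them. Csf1 and Il6 rose with CSF1Ri chow and S1pr5 and Klf4 fell. Each is the 250 bases before the gene's start in RefSeq (build GRCm38.p6), written 5′ to 3′ on the gene's strand: Csf1 at chr3:107760470-107760719 (minus strand), Il6 at chr5:30012864-30013113 (plus strand), S1pr5 at chr9:21248444-21248693 (minus strand) and Klf4 at chr4:55532476-55532725 (minus strand). Capitals mark matches, on either strand, to any of 4 motifs of factors known in myeloid cells: AP-1 (TGANTCA), C/EBP (TTNNGNAA), kB of NF-kB (GGGNNNNNCC) and the NR4A element NBRE (AAAGGTCA). Overlapping matches run together in 1 stretch of capitals.
Csf1: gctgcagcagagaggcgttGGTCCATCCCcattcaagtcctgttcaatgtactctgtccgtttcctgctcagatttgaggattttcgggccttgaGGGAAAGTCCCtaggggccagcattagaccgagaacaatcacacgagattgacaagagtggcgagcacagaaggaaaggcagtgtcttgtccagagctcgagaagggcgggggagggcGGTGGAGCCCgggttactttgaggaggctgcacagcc
Il6: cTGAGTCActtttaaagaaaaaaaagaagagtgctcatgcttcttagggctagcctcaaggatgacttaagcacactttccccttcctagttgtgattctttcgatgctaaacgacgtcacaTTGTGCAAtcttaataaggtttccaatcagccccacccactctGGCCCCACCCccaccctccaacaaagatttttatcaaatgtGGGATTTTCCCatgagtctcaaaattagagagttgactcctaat
S1pr5: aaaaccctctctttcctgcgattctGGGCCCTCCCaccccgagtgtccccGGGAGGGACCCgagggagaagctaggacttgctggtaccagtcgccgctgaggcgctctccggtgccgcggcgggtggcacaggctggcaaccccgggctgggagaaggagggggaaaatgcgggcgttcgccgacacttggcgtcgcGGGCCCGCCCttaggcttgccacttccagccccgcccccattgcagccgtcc
Klf4: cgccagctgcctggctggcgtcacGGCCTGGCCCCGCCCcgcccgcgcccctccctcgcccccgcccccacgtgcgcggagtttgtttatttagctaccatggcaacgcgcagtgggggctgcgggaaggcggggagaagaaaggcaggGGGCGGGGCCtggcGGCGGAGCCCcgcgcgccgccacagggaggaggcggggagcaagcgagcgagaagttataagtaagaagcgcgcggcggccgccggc
The Csf1 window held 4 kB matches, starting 231, 155, 154 and 37 bases before the start, of which the second and the third overlap. The Il6 window held 1 AP-1 match, 1 C/EBP match and 3 kB matches, the C/EBP match starting 128 bases and the kB matches 85, 44 and 43 bases before the start. The windows of S1pr5 and Klf4, which fell, each held 4 kB matches as well. The 4 windows are not typical of the called genes in this. Cd36, Bcl2 and Heg1 had 1 kB match each, and Cd300e, Cyp11a1 and Zfyve9 had 0. Over all their starts, Ace and Tiam2 had 2 each, Arhgap29 had 3 and Apol9b had 7. Of all 32851 promoters in the table, 6.75% held the AP-1 motif, 36.8% the C/EBP motif, 45.8% the kB motif and 1.34% the NBRE. Of the 24 called genes 14 had a promoter in the table, and of these 2 held AP-1, 5 C/EBP, 11 kB and 0 NBRE. Here a gene was counted if any of its starts held the motif, and some genes had more than 1 start (Tiam2 had 3). The percentages are per promoter, so the 2 kinds of count are not alike and cannot show enrichment. A match describes these letters and is not evidence of a bound site.

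The ligand of the inhibited receptor rose in every library with the drug. Csf1 (chr3:107741048-107760469, minus strand, gene span in GENCODE M21 on GRCm38) had 65.8, 62.0 and 97.0 CPM in the combination, against 33.5, 27.6 and 20.2 CPM in CD40 agonist. Without antibody it had 90.4, 132 and 71.7 CPM in CSF1Ri, against 23.4, 41.3 and 27.4 CPM in Control. The lowest chow library thus lay above the highest library without chow. The log2 difference was 1.57 ± 0.21 (SE, adjusted p = 0.0133), or 2.97-fold, with 1.47 ± 0.31 with antibody and 1.68 ± 0.31 without. The receptor gene Csf1r itself had 616, 1208 and 692 CPM in the combination and 773, 624 and 644 CPM in CSF1Ri, against 866, 1043 and 1032 CPM in CD40 agonist and 876, 843 and 857 CPM in Control. Combination replicate 2 was the highest of the 12, and the other 5 chow libraries lay below all 6 without chow. The log2 difference of Csf1r was -0.28 ± 0.15 (adjusted p = 0.609), and without both outlying libraries it was -0.44 (adjusted p = 0.123). On the TPM scale, which is per transcript length, Csf1r averaged 255.7 in the combination, 325.1 in CD40 agonist, 237.9 in CSF1Ri and 300.2 in Control. Csf1 was lower on that scale, at 29.0 TPM in the combination, 11.0 TPM in CD40 agonist, 42.8 TPM in CSF1Ri and 14.2 TPM in Control. Il34, the second ligand, was too low to be tested, with at most 2.30 CPM in the chow libraries and 0 counts in the 6 libraries without chow. Of the 15 tested genes of the CSF1 receptor axis, Csf1 alone was called, and the list's median log2 difference was 0.04 (-0.01 to 0.09 when 1 library was left out). Csf2rb, the shared signalling chain of the receptors for GM-CSF, interleukin 3 and interleukin 5, had a log2 difference of 0.50 ± 0.16 (adjusted p = 0.324).

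Il6 and Osm, a pair of cytokines of the interleukin 6 family, rose together with Csf1. Il6 (chr5:30013114-30019981) had 55.9, 57.3 and 42.5 CPM in the combination, against 20.7, 28.9 and 14.8 CPM in CD40 agonist, and 41.5, 56.1 and 44.9 CPM in CSF1Ri, against 10.1, 19.3 and 10.9 CPM in Control. The arms of 6 did not overlap. This was a log2 difference of 1.55 ± 0.23 (adjusted p = 0.0201), or 2.92-fold, and without both outlying libraries it was 1.54 (adjusted p = 0.0511). The call was also lost without Control replicate 1 or 3, CD40 agonist replicate 1 or 3, or CSF1Ri replicate 1 or 2 (adjusted p from 0.0521 to 0.0606). Osm (chr11:4236420-4241026), which encodes oncostatin M, had 412, 354 and 362 CPM in the combination, against 205, 137 and 112 CPM in CD40 agonist, and 443, 417 and 127 CPM in CSF1Ri, against 59.1, 75.8 and 74.0 CPM in Control. CSF1Ri replicate 3 was the only chow library among the values of the libraries without chow. Osm thus had a log2 difference of 1.78 ± 0.30 (adjusted p = 0.0490), and without both outlying libraries it was 2.02 (adjusted p = 0.0161). The call was lost in 10 of the 12 analyses that left out 1 library (adjusted p from 0.0526 to 0.143), CD40 agonist replicate 1 and CSF1Ri replicate 3 being the exceptions. Of 19 inflammatory cytokines and mediators tested, Il6 and Osm were the 2 called, both higher (background 0.0562% of all genes tested). The list's median log2 difference was 0.70, against -0.01 over all genes tested. Tnf, the gene of tumor necrosis factor, had a log2 difference of -0.04 ± 0.42, with a sign that changed between analyses, and Il1b, of interleukin 1 beta, 0.95 ± 0.41 (adjusted p = 0.506).

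**Figure D2:**
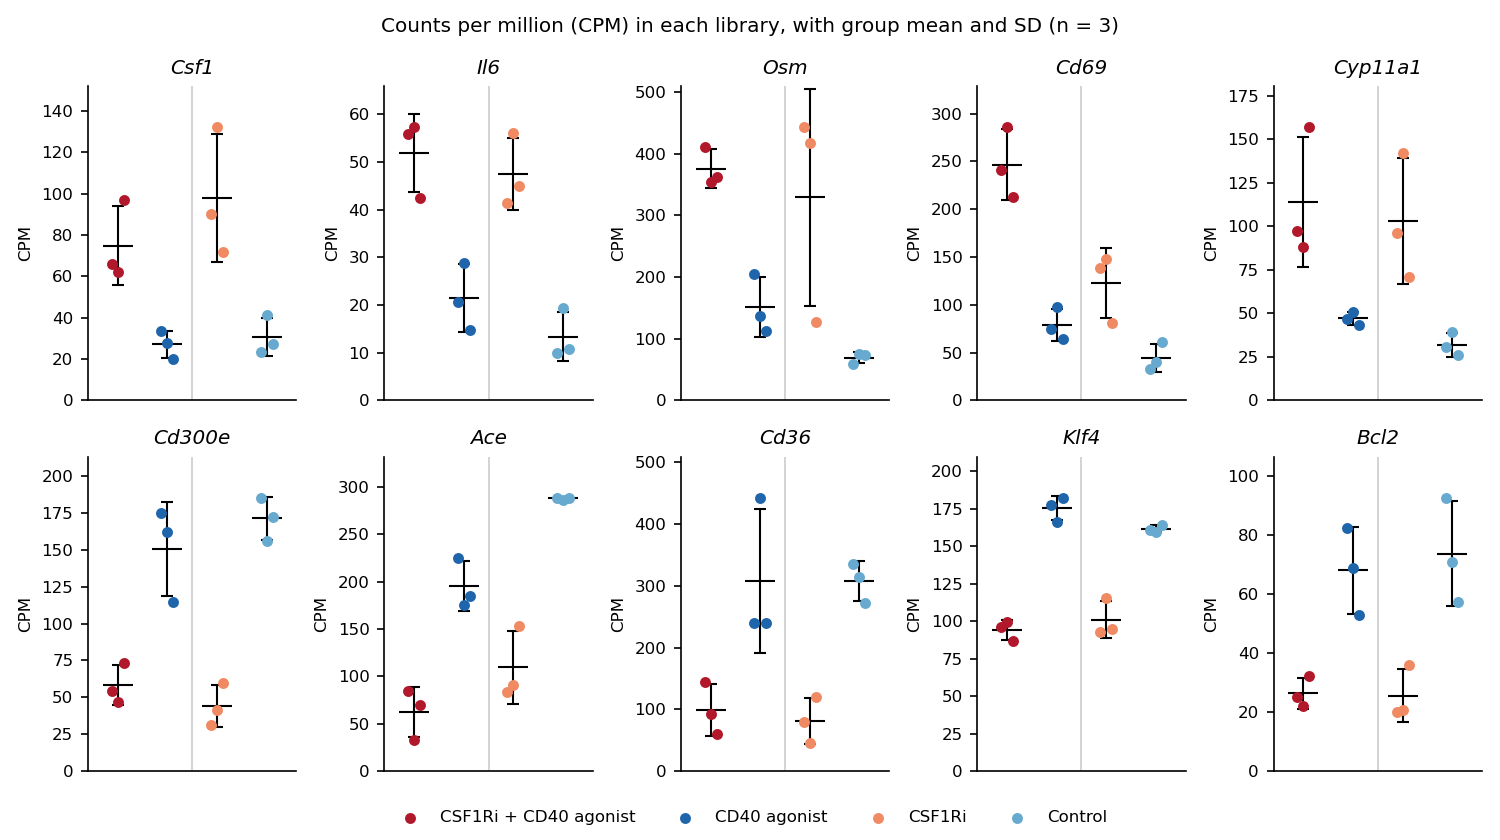
CPM (y axis, linear, from 0) in each library for 5 called genes that rose (top) and 5 that fell (bottom), with the group mean and SD of 3 libraries. Within each panel CSF1Ri + CD40 agonist stands left of CD40 agonist, and CSF1Ri left of Control. The chow groups lie above their partners for Csf1, Il6, Osm, Cd69 and Cyp11a1 and below them for Cd300e, Ace, Cd36, Klf4 and Bcl2.

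Cd69 (chr6:129267325-129275436) encodes an early activation marker of leukocytes that holds cells in tissue. It had 241, 286 and 212 CPM in the combination, against 74.8, 97.4 and 64.1 CPM in CD40 agonist, and 139, 149 and 80.8 CPM in CSF1Ri, against 32.8, 40.5 and 61.3 CPM in Control. The chow libraries were higher within both sets, and the arms overlapped only through CSF1Ri replicate 3 and CD40 agonist replicate 2. Cd69 had a log2 difference of 1.55 ± 0.20 (adjusted p = 0.00982), with an adjusted p of 0.0962 without the antibody term. Cyp11a1 (chr9:58006411-58027023) encodes the mitochondrial enzyme that starts steroid synthesis from cholesterol. Its level ran from 71.1 to 157 CPM (median 96.7) with CSF1Ri chow and from 25.9 to 50.9 CPM (median 41.4) without, and the arms did not overlap. Cyp11a1 had a log2 difference of 1.48 ± 0.20 (adjusted p = 0.0133), with an adjusted p of 0.0537 without Control replicate 1. Its exons share 145 bases with the long non-coding gene Gm17322 on the same strand. Olfr1033 (chr2:86020633-86045171), annotated as an olfactory receptor gene, ran from 136 to 261 CPM with chow and from 79.2 to 103 CPM without, with a log2 difference of 0.91 ± 0.15 (adjusted p = 0.0368), and lost its call in 8 of the 12 analyses that left out 1 library (adjusted p from 0.0629 to 0.117).

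Markers of non-classical monocytes were lower as a group. Of the 16 listed, all tested, 4 were called and all 4 fell (background 0.0936%). At an unadjusted p below 0.05, 12 were lower (background 4.6%), and 0 of the 16 had a positive difference. The median log2 difference was -0.68, with -0.99 in the libraries with antibody and -0.78 in those without. Summed over the 16 genes, the level was 2470, 3133 and 2166 CPM in the combination, against 4491, 4137 and 3739 CPM in CD40 agonist, and 2715, 2518 and 3132 CPM in CSF1Ri, against 4748, 4582 and 4616 CPM in Control. All 6 chow libraries lay below all 6 others. In bulk RNA, fewer cells of a type and less RNA of these genes per cell cannot be told apart.

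Cd300e (chr11:115051917-115062177), an activating receptor of monocytes, had 54.2, 47.1 and 73.2 CPM in the combination, against 175, 162 and 115 CPM in CD40 agonist, and 31.4, 41.6 and 59.5 CPM in CSF1Ri, against 186, 156 and 172 CPM in Control. The highest chow library was well below the lowest of the others. The log2 difference was -1.66 ± 0.19 (adjusted p = 0.00977), a 3.17-fold lower level. Ace (chr11:105967945-105989964), the angiotensin-converting enzyme, had 84.1, 33.0 and 69.8 CPM in the combination, against 225, 176 and 185 CPM in CD40 agonist, and 83.7, 90.8 and 154 CPM in CSF1Ri, against 289, 286 and 289 CPM in Control. The arms did not overlap, and the log2 difference was -1.52 ± 0.22 (adjusted p = 0.0174). The call was lost without Control replicate 1 or 2, CD40 agonist replicate 1, combination replicate 3, or CSF1Ri replicate 1 or 2 (adjusted p from 0.05 to 0.0683). Its exons share 295 bases with the antisense gene Gm11651, and the libraries hold no strand information.

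Cd36 (chr5:17781690-17888801), a scavenger receptor for lipids and apoptotic cells, ran from 45.7 to 144 CPM (median 86.0) with chow and from 240 to 443 CPM (median 293) without. Cd36 had a log2 difference of -1.77 ± 0.27 (adjusted p = 0.0255), and the call was lost in 8 of the 12 analyses that left out 1 library (adjusted p from 0.0517 to 0.095), those without CD40 agonist replicate 1 or 3, combination replicate 1 or CSF1Ri replicate 3 being the exceptions. S1pr5 (chr9:21242912-21248443), the sphingosine-1-phosphate receptor through which non-classical monocytes and NK cells leave the bone marrow, ran from 7.86 to 16.2 CPM with chow and from 20.6 to 40.1 CPM without. For S1pr5 the log2 difference was -1.47 ± 0.20 (adjusted p = 0.0133), and the adjusted p was 0.0518 without CSF1Ri replicate 2. The arms overlapped for neither Cd36 nor S1pr5. Exons of S1pr5 share 51 bases with Gm48303, a gene on the other strand. Members short of the threshold included Fabp4, a fatty acid binding protein gene, at -1.69 ± 0.38 (adjusted p = 0.126). Without both outlying libraries Fabp4 was called, at -1.59 (adjusted p = 0.0203), as it was without combination replicate 2 alone (-1.48, adjusted p = 0.0215). Eno3, an enolase gene, was at -1.26 ± 0.33 (adjusted p = 0.182) and was called without both libraries (-1.28, adjusted p = 0.0347). Pou2f2, a transcription factor gene, was at -0.98 ± 0.20 (adjusted p = 0.0935) and was called without CSF1Ri replicate 3 (adjusted p = 0.0313). Also short of it were Nr4a1, a nuclear receptor that non-classical monocytes need, at -0.53 ± 0.14 (adjusted p = 0.216) and Cx3cr1, their fractalkine receptor, at -0.39 ± 0.11 (adjusted p = 0.227).

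Klf4 (chr4:55527143-55532466), a transcription factor of monocyte differentiation, had the smallest relative error of the called genes that fell. It had 95.7, 99.2 and 86.4 CPM in the combination, against 178, 166 and 182 CPM in CD40 agonist, and 93.0, 115 and 94.6 CPM in CSF1Ri, against 161, 160 and 164 CPM in Control. The 2 arms were separated by more than the whole range within either. The log2 difference was -0.79 ± 0.09 (adjusted p = 0.00977). Klf4 was also the one called member of the 15 alternative activation genes. Of these, 1 was lower (background 4.6%) and 4 were higher (background 4.69%) at an unadjusted p below 0.05. That list's median was -0.60, with -0.58 with antibody and 0.18 without, and it was -0.31 without both outlying libraries and -0.35 without combination replicate 2. Arg1, the arginase of that list, had a log2 difference of 0.24 ± 0.49 (adjusted p = 0.941), and its sign turned without combination replicate 1.

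Bcl2 (chr1:106538178-106714274), the founding anti-apoptotic gene of its family, had 25.0, 21.96 and 32.2 CPM in the combination, against 82.4, 68.8 and 52.8 CPM in CD40 agonist, and 19.9, 20.8 and 36.0 CPM in CSF1Ri, against 92.7, 71.0 and 57.4 CPM in Control. The arms did not overlap, and the log2 difference was -1.45 ± 0.20 (adjusted p = 0.0133), and the adjusted p was 0.0518 without CSF1Ri replicate 2. Its exons share 558 bases with the antisense gene D630008O14Rik. The other 15 genes of the Bcl2 family, pro-survival and pro-death members together, were not called, and the family's median was -0.20 (-0.12 without CSF1Ri replicate 2). Mcl1, another survival gene, had a log2 difference of 0.27 ± 0.10 (adjusted p = 0.412), and Bad, a pro-death member, 0.41 ± 0.11 (adjusted p = 0.207).

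Slc12a2, the sodium-potassium-chloride cotransporter NKCC1, fell the most among called genes with a mean of at least 5 CPM. It had 30.8, 9.01 and 28.8 CPM in the combination, against 128, 79.6 and 87.2 CPM in CD40 agonist, and 18.2, 14.5 and 26.6 CPM in CSF1Ri, against 81.4, 102 and 96.1 CPM in Control. Its log2 difference was -2.17 ± 0.28 (adjusted p = 0.0104), a 4.49-fold lower level. Heg1, a receptor for the CCM complex in endothelium, was 15.5 to 31.4 CPM with chow and 34.3 to 69.8 CPM without (log2 difference -1.18 ± 0.20). Tiam2, an exchange factor for the GTPase RAC1, was 22.6 to 44.5 CPM with chow and 52.7 to 85.0 CPM without (-1.04 ± 0.13). Zfyve9, the TGF-beta receptor adaptor SARA, was 12.1 to 27.1 CPM with chow and 22.8 to 42.7 CPM without (-0.98 ± 0.15). Grk3, a kinase that desensitises G protein-coupled receptors, was 136 to 345 CPM with chow and 263 to 466 CPM without (-0.72 ± 0.12). Their adjusted p-values were 0.0486 for Heg1, 0.00982 for Tiam2, 0.0255 for Zfyve9 and 0.0490 for Grk3. Tiam2 kept its call whichever library was left out, but lost it without the antibody term (adjusted p = 0.0542). Of the 12 analyses that left out 1 library, the call was lost in 11 for Heg1, 9 for Zfyve9 and 11 for Grk3. Without both outlying libraries Heg1 was at -1.23 (adjusted p = 0.0511). Of these genes, Heg1, Tiam2 and Zfyve9 share exon bases with a gene on the other strand.

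Ms4a1, which encodes the B cell antigen CD20, was nearly absent from the chow libraries. It had 0.109, 0.373 and 0.357 CPM in the combination, against 13.7, 9.98 and 4.62 CPM in CD40 agonist, and 0.170, 0.262 and 0.117 CPM in CSF1Ri, against 1.67, 5.44 and 4.59 CPM in Control. That is 45 counts over the 6 chow libraries and 1242 counts over the 6 others. The fit gave a log2 difference of -4.74 ± 0.54 (adjusted p = 0.00977). Ms4a1 was the one called of 12 B cell markers tested (background 0.0936% called lower). Of these markers, 6 were lower (background 4.6%) and 0 higher at an unadjusted p below 0.05, with a median of -1.12. Ighm, the heavy chain gene of IgM, had 185, 94.6 and 123 CPM in the combination and 140, 173 and 140 CPM in CSF1Ri, against 226, 294 and 292 CPM in CD40 agonist and 280, 244 and 242 CPM in Control. Its arms did not overlap, with a log2 difference of -0.89 ± 0.15 (adjusted p = 0.0545), and Ighm was called without combination replicate 1 (adjusted p = 0.0213) or 2 (adjusted p = 0.0381). Summed over the 14 listed B cell genes, the level was 119.1 to 237.9 CPM with chow and 299.9 to 419.1 CPM without, and over the 17 T cell genes 143.6 to 226.5 CPM with chow and 238.0 to 373.2 CPM without, with no T cell marker called (median -0.93, and -0.57 without CD40 agonist replicate 3). Since no sort is named, such cells may be in the samples, and the part of B and T cells in the results on other genes was not tested.

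P2rx2, Arhgap29 and Apol9b were called at very low counts and are named here after their values were seen. P2rx2, an ATP-gated channel gene, had 12.9, 21.1 and 12.3 CPM in CD40 agonist and at most 0.0545 CPM in any chow library, but in Control it had 0, 0.949 and 0.0335 CPM, so its level without chow rests on the CD40 agonist group. Arhgap29, a GTPase-activating protein for RhoA, summed to 5 counts over the 6 chow libraries and 600 counts over the others. Apol9b, an apolipoprotein L gene with a close paralog, summed to 7 counts with chow and 302 counts without. Of the 12 analyses that left out 1 library, 8 lost the call for P2rx2, 5 for Arhgap29 and 10 for Apol9b. Without both outlying libraries the adjusted p was 0.0667 for P2rx2 and 0.0594 for Arhgap29. The called features Gm9973, Gm15280 and Gm45551, also named after their values were seen, had log2 differences of 1.27 ± 0.15, 1.19 ± 0.17 and 1.30 ± 0.17. Gm15280 lost its call without CSF1Ri replicate 2 (adjusted p = 0.0518). They are pseudogene annotations, and reads shared with similar copies make their levels uncertain.

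Classical monocyte markers differed the other way from the non-classical ones, with no gene called. Of 11 tested, 10 had positive differences and 8 were higher and 0 lower at an unadjusted p below 0.05 (background 4.69%). The median log2 difference was 0.97, with 0.73 with antibody and 1.07 without. Vcan, the proteoglycan versican, had 84.2, 321 and 194 CPM in the combination, against 76.1, 63.0 and 62.0 CPM in CD40 agonist, and 329, 298 and 126 CPM in CSF1Ri, against 45.9, 80.3 and 40.8 CPM in Control. The arms did not overlap, yet the difference of 1.87 ± 0.34 had an adjusted p of 0.0586. Without both outlying libraries the difference of Vcan was 1.81 (adjusted p = 0.0607), while it was called without combination replicate 1 (adjusted p = 0.0189) or CSF1Ri replicate 3 (adjusted p = 0.0345). Ccr2, the chemokine receptor by which these monocytes enter tissue, had a log2 difference of 0.32 ± 0.16 (adjusted p = 0.602). Summed over the list, the level was 6406, 19500 and 8369 CPM in the combination and 12580, 11630 and 7783 CPM in CSF1Ri, against 7333, 7960 and 5689 CPM in CD40 agonist and 6013, 6929 and 5446 CPM in Control, and the arms overlapped.

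**Figure D3:**
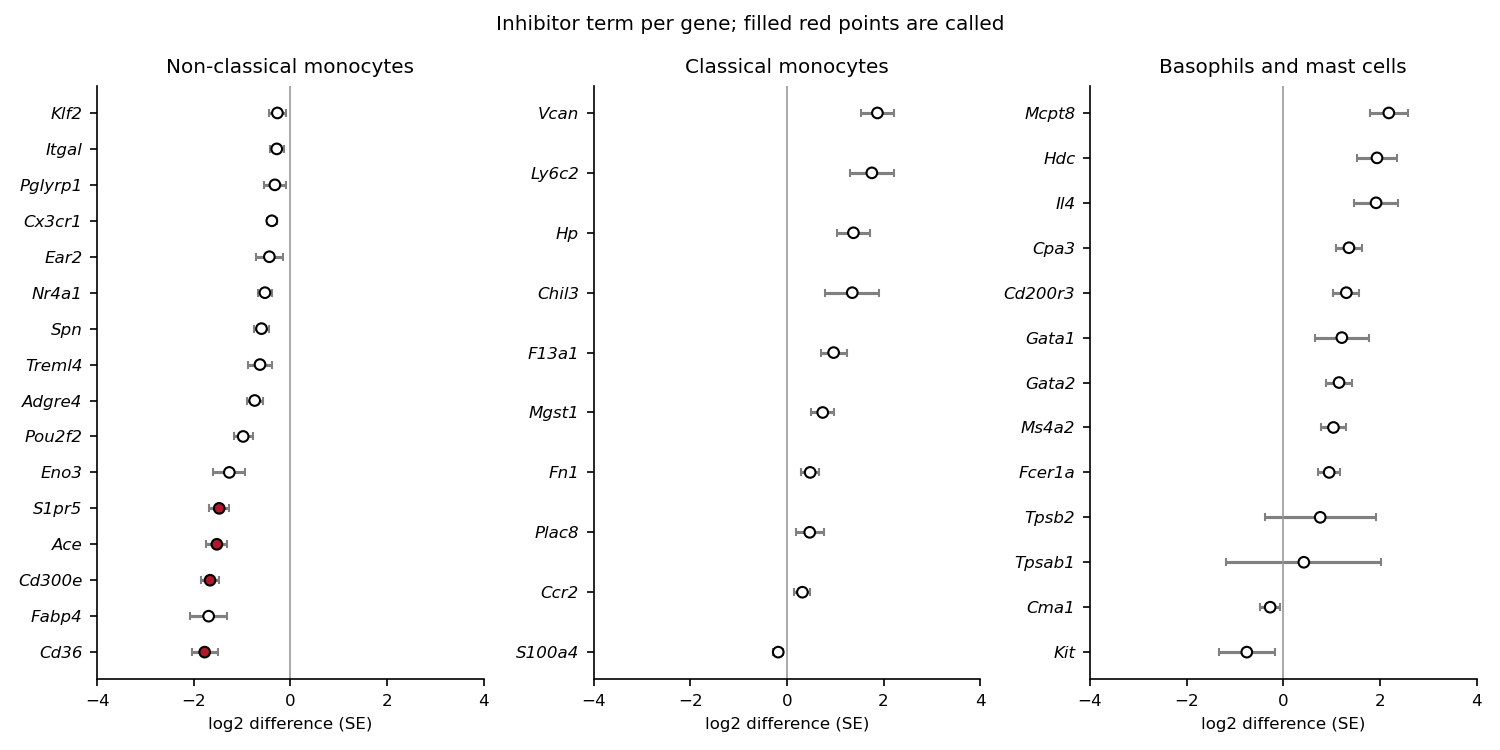
Log2 difference for CSF1Ri chow (x axis, bars are 1 SE) of the tested members with a mean of at least 2 CPM in 3 lists, 1 classical monocyte marker not being drawn. Filled red points are called genes and open points are not. All 16 non-classical monocyte markers lie below 0, and all but 1 of the classical monocyte markers drawn lie above 0.

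Markers of basophils and mast cells were mostly higher, again with none called. Of 14 tested, 12 had positive differences and the median was 1.18. At an unadjusted p below 0.05, 9 were higher (background 4.69%) and 0 lower. Mcpt8, a protease gene that marks mouse basophils, had 148, 78.8 and 137 CPM in the combination, against 60.6, 43.0 and 17.1 CPM in CD40 agonist, and 154, 204 and 60.3 CPM in CSF1Ri, against 17.0, 24.0 and 19.9 CPM in Control. Only CSF1Ri replicate 3 reached down to the libraries without chow. Mcpt8 had a log2 difference of 2.18 ± 0.39 (adjusted p = 0.0579), and without both outlying libraries it was 2.51 (adjusted p = 0.0203). Mcpt8 was also called without CD40 agonist replicate 1, combination replicate 2 or CSF1Ri replicate 3 alone (adjusted p = 0.0409, 0.0381 and 0.0348). Cpa3, a carboxypeptidase of mast cells and basophils, was at 1.36 ± 0.27 (adjusted p = 0.0888), and Il4, the cytokine interleukin 4, at 1.92 ± 0.45 (adjusted p = 0.146). The mast cell genes Cma1 and Kit were at -0.27 ± 0.21 and -0.76 ± 0.58. The summed level of the list was 1004, 814 and 1247 CPM in the combination, against 675, 558 and 381 CPM in CD40 agonist, and 1803, 1797 and 658 CPM in CSF1Ri, against 329, 374 and 354 CPM in Control. Basophils make interleukin 4 and interleukin 6, and the part of their RNA in the results on Il6, Osm, Csf1, Cd69 and Cyp11a1 was not tested.

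Neutrophil markers had a median of 0.97, which was 1.52 without both outlying libraries. At an unadjusted p below 0.05, 5 of 16 were higher (background 4.69%) and 0 lower, and 0 were called. S100a8, a calcium-binding protein gene of neutrophils and monocytes, had 204, 523 and 526 CPM in the combination and 861, 613 and 80.0 CPM in CSF1Ri, against 97.0, 70.5 and 85.3 CPM in CD40 agonist and 369, 94.1 and 118 CPM in Control. The arms overlapped through CSF1Ri replicate 3 and Control replicate 1. Its log2 difference was 1.86 ± 0.53 (adjusted p = 0.240), against 2.13 (adjusted p = 0.0498) without CSF1Ri replicate 3 and 2.02 (adjusted p = 0.0651) without both outlying libraries. Ly6g, the defining surface marker of mouse neutrophils, was at most 3.22 CPM with chow and 1.04 CPM without. Eosinophil markers had a median of 0.93 over 11 tested genes, with -0.49 with antibody and 1.75 without. That median moved with single libraries, being 0.38 without CSF1Ri replicate 3, 0.42 without Control replicate 3 and 0.46 without Control replicate 2. Ccr3, the eotaxin receptor, had 104, 111 and 136 CPM in CSF1Ri, against 28.7, 43.6 and 17.8 CPM in Control, and 15.4, 15.4 and 24.5 CPM in the combination, against 6.97, 20.5 and 15.99 CPM in CD40 agonist. The difference between these effects had an unadjusted p of 0.0163 and did not pass adjustment.

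Among the 26 macrophage identity and efferocytosis genes, none was called, 10 were lower and 0 higher at an unadjusted p below 0.05 (background 4.6% lower), and the median was -0.66. Their summed level, to which Lyz2 gave the most, was not lower. It was 15190, 34950 and 18250 CPM in the combination, against 19790, 20740 and 16540 CPM in CD40 agonist. Without antibody it was 28260, 27820 and 22770 CPM in CSF1Ri, against 18610, 20890 and 17430 CPM in Control. Apoe, the lipoprotein of lipid-laden macrophages, had 122, 11.4 and 76.7 CPM in the combination, against 256, 399 and 424 CPM in CD40 agonist, and 11.4, 15.0 and 39.0 CPM in CSF1Ri, against 52.9, 73.7 and 99.3 CPM in Control. Within both sets the chow libraries were lower, but the pooled arms overlapped. The log2 difference was -2.08 ± 0.48 (adjusted p = 0.147), and without both outlying libraries it was -2.17 (adjusted p = 0.0147). C1qb, a chain of complement C1q, had a log2 difference of -1.96 ± 0.69 (adjusted p = 0.376), with 8.64 to 198 CPM in the combination, 109 to 299 CPM in CD40 agonist, 3.37 to 14.5 CPM in CSF1Ri and 51.9 to 69.7 CPM in Control. Broad macrophage markers had log2 differences of -0.05 ± 0.10 for Cd68 and 0.17 ± 0.11 for Adgre1, the gene of F4/80. Lipid uptake and efflux genes had a median of -0.38 over 18 tested (-0.24 without CSF1Ri replicate 1 and -0.25 without CSF1Ri replicate 2), with Cd36 the one called. Msr1, a scavenger receptor, was at 0.64 ± 0.19 (adjusted p = 0.249), and without both outlying libraries it was called, at 0.59 (adjusted p = 0.0181).

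The inhibitor effects in the 2 sets of libraries were also set side by side. Across the 16027 genes, the difference with antibody and the difference without had Pearson's r = 0.101 and Spearman's rho = 0.0847, and 52.6% of genes had the same sign. Each rests on its own 6 libraries, and genes are not independent replicates. Of 1517 genes at an unadjusted p below 0.05 without antibody, 59.5% had the same sign with antibody, and of 1450 such genes with antibody, 58.6% had the same sign without. 278 genes were at an unadjusted p below 0.05 in both sets, and 203 of them had the same sign. Lists of interferon genes were among those whose medians differed most between the sets. Interferon gamma response genes had a median of 1.79 with antibody and -0.15 without, and type I interferon genes 0.97 with antibody and -0.35 without. Leaving out both outlying libraries moved the interferon gamma list's overall median of 0.78 to 0.23 and the type I list's of 0.38 to 0.15, and without combination replicate 2 alone the medians were 0.34 and 0.05. MHC class II genes had a median of 0.08 with antibody and -0.65 without. H2-Ab1, an MHC class II beta chain gene, had 1414, 1469 and 1987 CPM in CSF1Ri, against 3207, 2940 and 3185 CPM in Control, and 4016, 3720 and 4100 CPM in the combination, against 2727, 3968 and 5262 CPM in CD40 agonist. The unadjusted p of that difference of effects was 0.00826 for H2-Ab1, and no gene passed adjustment in the main analysis.

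**Figure D4:**
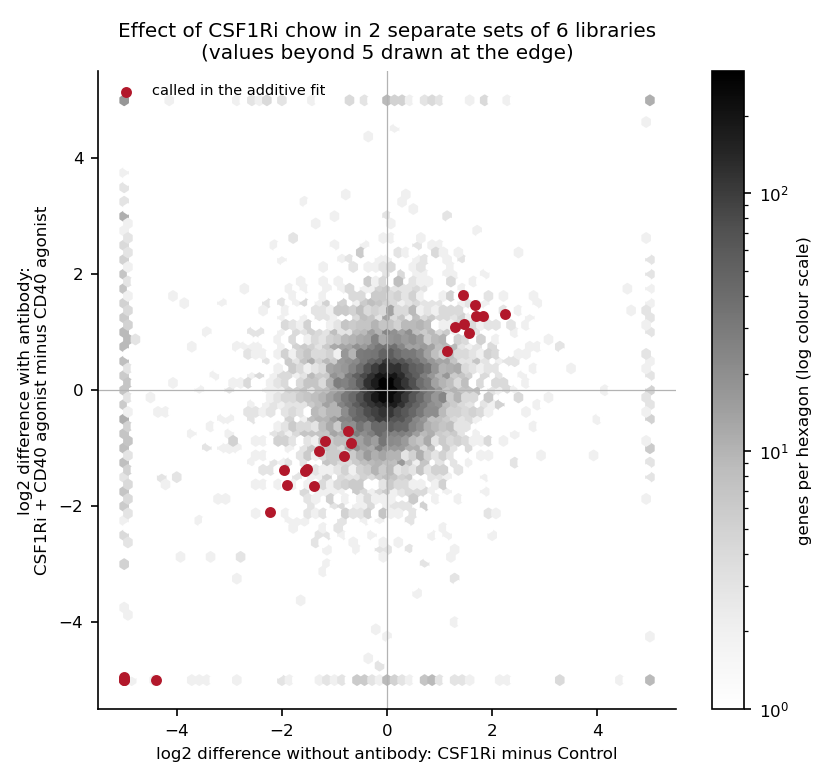
Log2 difference for CSF1Ri chow with antibody (y axis) against the same without antibody (x axis) for 16027 genes, drawn as hexagons shaded by the number of genes on a log colour scale. Red points are the 24 called genes, and values beyond 5 are drawn at the edge. The cloud is round (r = 0.101). The called genes lie in the quadrants where both differences have the same sign, which their choice by the pooled inhibitor term favours.

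**Figure D5:**
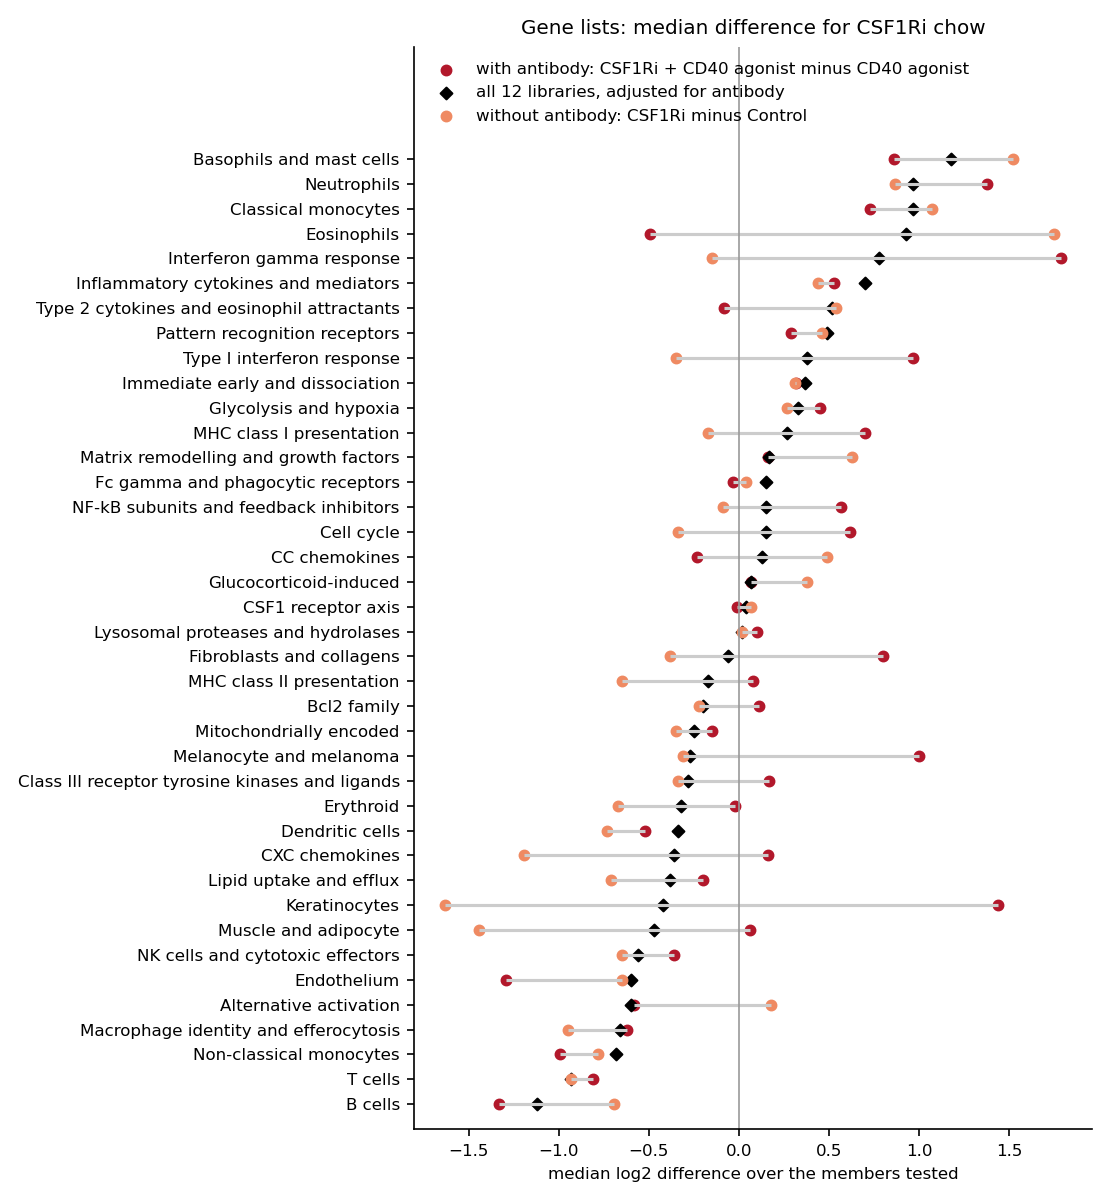
Median log2 difference for CSF1Ri chow (x axis) over the tested members of 39 gene lists. Red circles are the libraries with antibody, black diamonds all 12 libraries and orange circles the libraries without antibody. Non-classical monocyte markers lie near the low end at -0.68 and classical monocyte markers near the high end at 0.97, each with both sets on the same side of 0.

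Of the remaining lists, glycolysis and hypoxia genes had 18 of 20 positive differences and a median of 0.33. At an unadjusted p below 0.05, 10 were higher (background 4.69%) and 0 lower. Ldha, lactate dehydrogenase, had 821, 839 and 850 CPM in the combination, against 535, 638 and 653 CPM in CD40 agonist, and 647, 584 and 474 CPM in CSF1Ri, against 483, 449 and 507 CPM in Control. Its log2 difference was 0.35 ± 0.09 (adjusted p = 0.187). The 13 mitochondrially encoded genes all had negative differences, with a median of -0.25 and 7 lower at an unadjusted p below 0.05 (background 4.6%). Immediate early and dissociation genes, which tissue digestion induces, had a median of 0.37, with 13 positive and 5 negative differences. At an unadjusted p below 0.05, 10 of 18 were higher (background 4.69%) and 1 lower. Their summed level was 4068 to 8696 CPM with chow and 4299 to 6963 CPM without. The inhibitor term was not tested for dependence on these genes. CC chemokine genes had 7 positive and 6 negative differences and a median of 0.13 (0.02 to 0.26 when 1 library was left out). CXC chemokine genes had 4 positive and 9 negative and a median of -0.36 (-0.65 to -0.12), and 0 of either list were called. Ccl4 and Ccl3, which encode inflammatory chemokines of the CC family, were at 1.30 ± 0.27 (adjusted p = 0.0936) and 0.84 ± 0.22 (adjusted p = 0.194), while Ccl8 was at -2.04 ± 0.85 (adjusted p = 0.484). Ccl4 was called without both outlying libraries, at 1.53 (adjusted p = 0.0161), and without CSF1Ri replicate 3 alone, at 1.44 (adjusted p = 0.0114). Ppbp, a platelet chemokine gene, was at 0.0750 to 3.49 CPM with chow and 7.27 to 20.6 CPM without (-3.04 ± 0.68, adjusted p = 0.124). Tnfaip3, which encodes the NF-kB inhibitor A20, was at 1.08 ± 0.22 (adjusted p = 0.0936). It was called without both outlying libraries, at 1.13 (adjusted p = 0.0168), and without CSF1Ri replicate 3 alone, at 1.22 (adjusted p = 0.0114). The list of 18 NF-kB genes that holds it had a median of 0.15 and 0 called, with medians from 0.07 to 0.28 when 1 library was left out.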

How the data were processed

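RNA was sequenced from 12 pooled-tumor samples, 3 per group, from libraries without strand information, per the labels' protocols. STAR, HTSeq, DESeq2 and the build mm10 are named in the submitters' processing notes. Per the file headers the deposited values are of another kind, 1 row per transcript with its length and effective length, a TPM and an estimated count. What software wrote them is not given in the sources used. These estimated counts are as deposited, with no scaling between libraries. TPM values deposited by the authors were summed per gene and used only to compare levels between genes. All groups shared a genotype, of which not every allele is named here.

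For each gene of GENCODE M21, the counts of its transcripts were added up (34989 genes; transcripts without a match held 0.378% to 0.436% of counts per library) and rounded to whole numbers. Totals were 26316328 to 39818657 per library. After filterByExpr, which kept 16027 genes, and TMM scaling, the 12 libraries were fitted together in edgeR 4.0.16 under R 4.3.3, by a robust quasi-likelihood fit with antibody and inhibitor terms (9 residual degrees of freedom, biological coefficient of variation 63.2%). Benjamini-Hochberg adjustment ran over all genes tested, and an adjusted p below 0.05 is a call. A fit with a term per group (8 residual degrees of freedom) gave the effects with and without antibody and the test of their difference. Log2 CPM used a prior count of 2, and CPM is scaled to 1e+06 counts. Limma 3.58.1 (voom) and DESeq2 1.42.0 were alternatives, with other scalings, filters, a replicate block and the omission of each library.

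Genes with full values were the Csf1 receptor and its ligands, up to 12 called genes per direction with a mean of at least 5 CPM and a gene symbol that is not a clone name, called members of 39 lists and, for lists with fewer than 2 called members, those of lowest p. Other members were named as examples after their values were seen. The members and lists were chosen with earlier results of these data known. 1 gene counted in a list is not reported singly here. Lists are described by counts and medians, with no test. Whether pools of a group shared animals, litters or days is not stated in the labels. The p-values therefore measure only how these samples vary, part of which may be technical. Sequencing lanes are not named per library. No pair of the 66 held identical values, and log2 CPM correlated at 0.874 to 0.934. Limits set by low counts cover counting error only, as PCR copies of a molecule were not marked.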

Additional observations from a re-analysis of the deposited data

Results flagged for a closer look

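Within each arm of 6 libraries, the highest and the lowest value of every gene examined singly was compared with its nearest neighbour on the log2 CPM scale. 11 values in 180 such groups (6.11%) stood apart by more than Dixon's 95% critical value for 6 values, and chance alone gives about 1 in 20. Among libraries with CSF1Ri chow, combination replicate 2 was highest for Csf1r (10.24, next value 9.59), H2-D1 (12.55, next 12.24) and Apol9b (-2.11, next -3.45) and lowest for Fabp4 (0.89, next 3.35). CSF1Ri replicate 3 was lowest for Osm (6.99, next 8.47) and Ccl4 (7.97, next 9.65). Combination replicate 3 was lowest for the hemoglobin genes Hba-a1 (1.56, next 5.33) and Hba-a2 (1.71, next 5.62). Among libraries without CSF1Ri chow, CD40 agonist replicate 3 was lowest for Cd300e (6.84, next 7.29) and S1pr5 (4.37, next 5.01), and Control replicate 1 was highest for S100a8 (8.53, next 6.88).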

How the results depend on the processing

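The number of genes called for the inhibitor (24) was 42 with a filter of at least 5 CPM in 3 libraries, 343 with DESeq2 (159 higher and 184 lower, all 24 among them), 54 with the bias-adjusted form of edgeR's fit, 13 without the antibody term and 50 without both outlying libraries. It ran from 10 to 48 when 1 library was left out. The other alternatives gave 21 to 31 calls. The cause of these changes was not tested. The test of the difference between the effects with and without antibody (0 calls) gave 183 calls with DESeq2, 66 without both outlying libraries and from 0 to 15 when 1 library was left out (15 without CSF1Ri replicate 3 and 1 without CSF1Ri replicate 1), and 0 in the others.

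Same-numbered samples of different groups did not deviate together (0 of 18 pairs of libraries correlated above 0.1, from -0.0614 to 0.0603), so the numbers were not taken as pairs. With the replicate number as a block, 21 genes were called for the inhibitor, 18 of them shared, and 0 for the difference of effects.

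None of the 24 called genes reversed in any alternative that tested it. Of 78 other genes examined singly, 2 did. Tnf (-0.04) was 0.47 with limma voom, 0.20 with bias-adjusted edgeR, 0.75 without the antibody term and -0.37 to 0.19 when 1 library was left out, with 6 of these 12 positive. Arg1 (0.24) was -0.042 to 0.42 when 1 library was left out, negative without combination replicate 1. Of 39 lists, 6 had a median that changed sign in some alternative. Ms4a1, Apol9b, Arhgap29 and P2rx2 rest on 45, 7, 5 and 4 counts over the 6 libraries with CSF1Ri chow, so depth limits how well their differences are measured.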

Other observations

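MHC class I presentation genes had positive differences in all 17 members, and none was called. At an unadjusted p below 0.05, 3 were higher (background 4.69%) and 0 lower. The list's median was 0.27, with 0.70 with antibody and -0.17 without. It was 0.12 without both outlying libraries, 0.13 without combination replicate 2 and 0.16 without CD40 agonist replicate 1. H2-D1, a class I heavy chain gene, had 4828, 5989 and 4287 CPM in CSF1Ri + CD40 agonist, against 4058, 4281 and 3922 CPM in CD40 agonist, and 4620, 4445 and 4730 CPM in CSF1Ri, against 3670, 3947 and 4042 CPM in Control. Its 2 arms of 6 did not overlap, with a log2 difference of 0.27 ± 0.08 (edgeR, adjusted p = 0.245), and class I genes are close copies of each other, so reads may be divided between them. NK cell and cytotoxic genes had a median of -0.56, with 7 of 15 lower (background 4.6%) and 0 higher at an unadjusted p below 0.05. Klrd1, the CD94 receptor gene of NK cells, had 55.8, 47.3 and 53.0 CPM in CSF1Ri + CD40 agonist, against 91.1, 101 and 65.9 CPM in CD40 agonist, and 25.0, 20.8 and 44.0 CPM in CSF1Ri, against 46.2, 49.3 and 54.6 CPM in Control. The chow libraries were lower within both sets, with a log2 difference of -0.73 ± 0.18 (edgeR, adjusted p = 0.161), and Klrd1 was called without CSF1Ri replicate 3 (-0.91, adjusted p = 0.0340).

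Markers of cells outside the immune system were also present. The summed level of 13 melanocyte and melanoma genes was 14.1 to 164 CPM with CSF1Ri chow and 31.9 to 98.0 CPM without, and that of 12 endothelial genes was 50.5 to 79.8 CPM with chow and 63.1 to 123 CPM without. Fibroblast and collagen genes summed to 41.4 to 238.0 CPM with chow and 83.1 to 223 CPM without, keratinocyte genes to 10.7 to 155.7 CPM with chow and 28.1 to 92.3 CPM without, and erythroid genes to 12.3 to 536 CPM with chow and 126 to 648 CPM without. The arms overlapped for all 5 lists. Cd207, the langerin gene of Langerhans cells, had 9.01, 0.136 and 17.3 CPM in CSF1Ri + CD40 agonist, against 56.4, 94.8 and 131 CPM in CD40 agonist, and 0, 0.0375 and 1.75 CPM in CSF1Ri, against 6.87, 3.89 and 7.33 CPM in Control. The chow libraries were lower within both sets, although the arms overlapped, and the log2 difference of -3.35 ± 0.92 had an adjusted p of 0.217 in edgeR's test (0.0599 without both outlying libraries). Fcgr4, an Fc gamma receptor of non-classical monocytes and macrophages, was at 26.1 to 60.9 CPM with chow and 60.7 to 90.6 CPM without, so that the arms just overlapped, a log2 difference of -0.81 ± 0.19 (adjusted p = 0.151).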
